A study of Mus musculus with 6 samples.

Results

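The genes for RNA polymerase II (Pol II) and for the factors that carry it from the promoter to the end of a gene were followed in newly made RNA of mouse embryonic stem cells in which degradation of the zinc finger protein ZFP207 was induced. The members were 49 genes taken by symbol from a written list, and each matched 1 of the 55401 rows of the count table. All 49 passed the filter on low counts, which kept 17573 genes. The depleted group was 3 libraries from ZFP207AID cells of the 129/Ola line kept in medium with auxin (IAA) for 5 h, with a genotype label that names the degradation of ZFP207. The control group was 3 libraries at 0 h, whose genotype label reads WT but whose titles carry the same degron name. AID, the auxin-inducible degron, is a protein tag that sends its carrier to the proteasome once IAA is added. Both groups grew in medium with serum and leukemia inhibitory factor. RNA was labelled with 4-thiouridine (4sU), biotinylated and pulled down on streptavidin, so unspliced precursors weigh more here than in total RNA. Whether the degron line was 1 clone is not given in the sources used here, and degron-free cells given IAA were not analysed here. Effects of IAA itself and of losing ZFP207 therefore cannot be told apart.

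Pol II starts at a promoter, where the kinase CDK7 of the CDK-activating kinase (CAK) phosphorylates the repeat tail (CTD) of its largest subunit. A short way into the gene it pauses, held by the factors DSIF and NELF, until P-TEFb, a kinase made of CDK9 and a cyclin T, releases it. P-TEFb is kept inactive in the 7SK particle by HEXIM1 and LARP7 and is brought to genes by the super elongation complex of ELL, AFF and MLLT proteins. Through the body of the gene the PAF complex, SPT6, the histone chaperone FACT and TFIIS travel with Pol II, while CDK12 and CDK13 with cyclin K phosphorylate the tail again. The series asks how ZFP207 bears on U1 snRNP, which binds 5' splice sites of the RNA that Pol II is making.

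The libraries held 14336811 to 23385133 counts in the depleted group and 17613103 to 25916628 in the controls. The members took 0.761 to 0.779% of them in depleted libraries and 0.726 to 0.750% in controls. All 8 listed stem cell markers had at least 1 CPM (counts scaled to library size) in every library, and their summed level was 4150 to 4770 CPM in depleted libraries and 3980 to 4420 CPM in controls. The 7 fibroblast markers summed to 2.87 to 4.47 CPM in depleted libraries and 2.49 to 8.94 CPM in controls, with Col3a1, Postn and Dcn at 0 in every library. Markers of early differentiated cells summed to 18.4 to 30.2 CPM in depleted libraries and 19.8 to 28.1 CPM in controls. Of these, T was at 0 in every library, while Eomes, Pax6 and Sox1 had at least 1 CPM in every library. Primitive endoderm markers summed to 8.58 to 9.61 CPM in depleted libraries and 3.30 to 7.61 CPM in controls, and their part in the results was not tested. Zfp207 RNA itself was at 695, 1467 and 596 CPM in depleted replicates 1 to 3 and 545, 1116 and 548 CPM in controls. An edgeR fit with libraries paired by replicate number gave it a log2 fold change of 0.29 (adjusted p = 0.0196). Without pairing, edgeR gave 0.32 (adjusted p = 0.823). The RNA level does not check a degron that acts on the protein.

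Few of these genes changed by much. Most of those called rose when libraries were paired by replicate number, while the only call without pairing was a fall. Levels below are CPM after TMM scaling, which sets the libraries to a common bulk of genes, so every change is relative. Fold changes are depleted over control. The edgeR quasi-likelihood test without a block called genes at a Benjamini-Hochberg adjusted p under 0.05. It called 1 member lower, Ell2, and 0 higher, where 0.780% of all genes tested were lower and 0.0114% higher. At an unadjusted p under 0.05 the same fit held 3 members lower and 4 higher, against 8.21 and 2.68% of all genes, and DESeq2 without a block called Ell2 lower and 0 members higher, against 3.30 and 0.353% of all genes. Because libraries with the same replicate number deviated together, the test was also run with the number as a block, here named the paired fit. It called 3 members lower (6.12%) and 8 higher (16.3%), where 7.90% of all genes were lower and 4.96% higher. Among the 9546 genes that averaged at least 10 CPM, a level chosen after the values were seen, 10.5% were lower and 8.71% higher.

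The lower members were Ell2, Cdk7 and Polr2b. The higher members were Cdk9, Cdk13, Hexim1, Leo1, Polr2e, Cdk12, Ell and Eaf1. Apart from Ell2, at 3.02-fold, the changes of these members lay between 1.20-fold for Eaf1 and 1.37-fold for Cdk9. The median log2 fold change over the 49 members was 0.11 without a block, with quartiles of -0.02 and 0.28, against 0.02 over all genes tested, and 34 members (69.4%) were above 0, as were 52.3% of all genes. Within pairs 1 to 3 the members' median log2 ratio was 0.09, 0.18 and 0.09, against -0.01, 0.05 and -0.01 for all genes. In all 3 pairs, 26 members (53.1%) were higher in the depleted library, as were 24.2% of all genes, and 6 members (12.2%) were lower, as were 24.1% of all genes. The groups did not overlap for 7 members that were higher (14.3%, against 6.94% of all genes) and 3 that were lower (6.12%, against 11.8%). In bulk libraries, fewer cells that make an RNA and less of it per cell cannot be told apart.

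**Figure D1:**
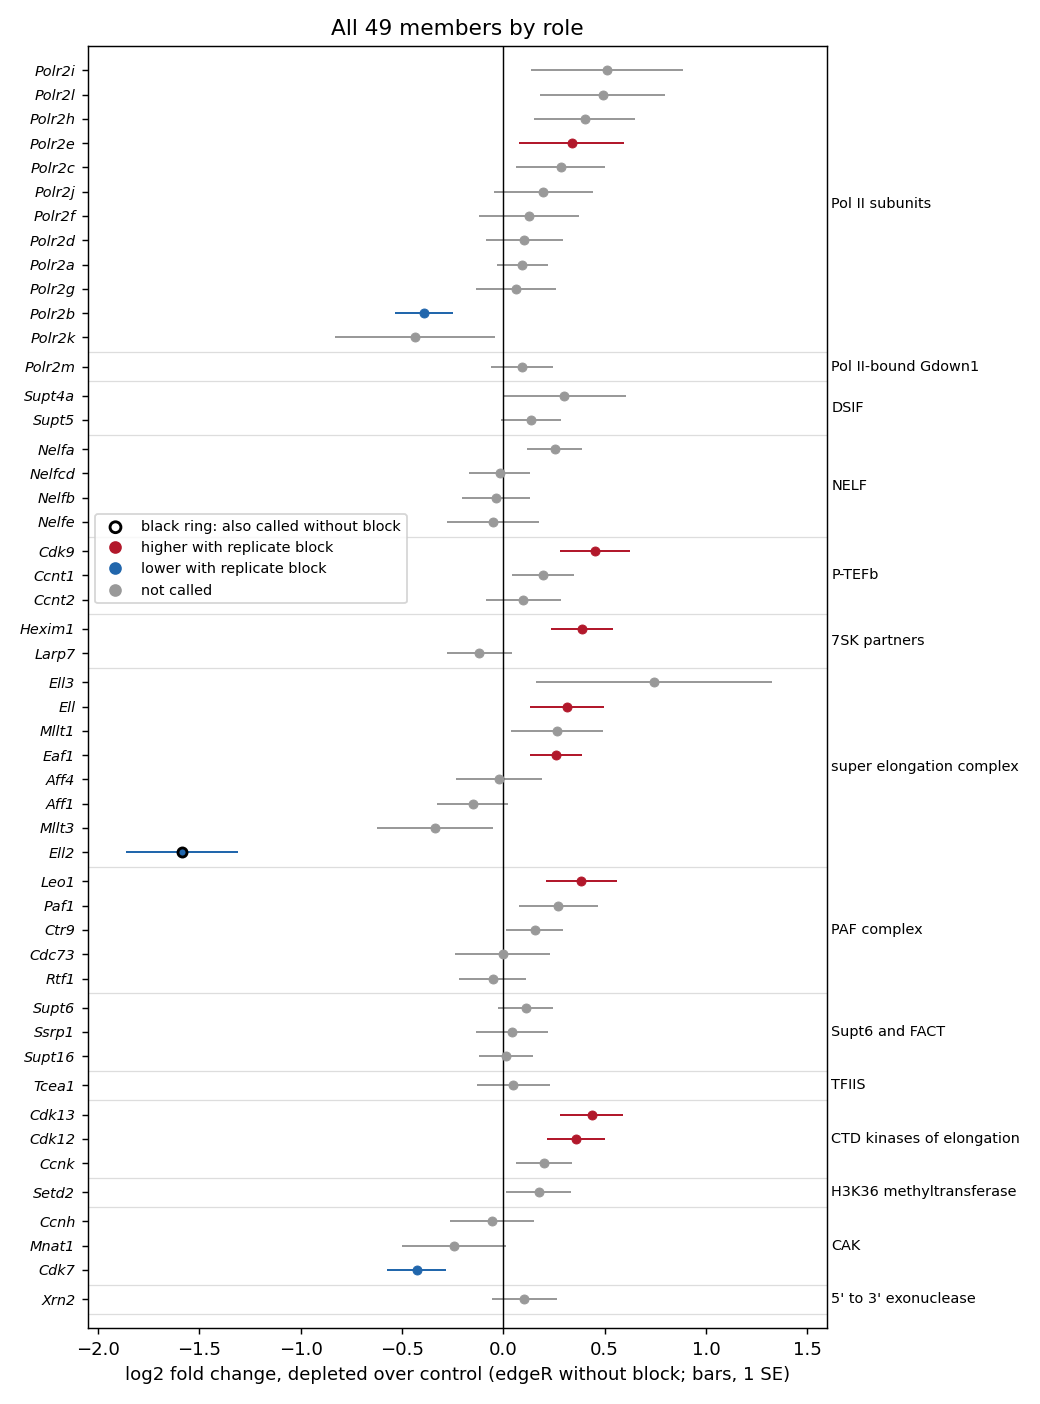
Log2 fold change of each of the 49 members, depleted over control, from the edgeR fit without a block (x axis; bars, 1 SE), grouped by role and coloured by the call of the paired fit. Ell2 lies at -1.59, apart from all others, and the 8 members called higher lie between 0.26 and 0.45.

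Leaving out pairs showed which calls rested on which libraries. Ell2, Cdk9, Cdk12 and Cdk13 were called by the paired fit whichever pair was left out. Without pair 2, whose libraries stood apart from the rest, the paired fit called Ell2 and Cdk7 lower (5.64% of all genes) and Cdk9, Cdk12, Cdk13, Hexim1 and Leo1 higher (2.29% of all genes). Without pair 1 it called Ell2 and Polr2b lower (5.31%) and Cdk9, Cdk12, Cdk13, Hexim1 and Ell3 higher (2.81%). Without pair 3 it called Ell2 and Cdk7 lower (3.88%) and Cdk9, Cdk12 and Cdk13 higher (1.39%). Polr2e, Ell and Eaf1 were lost whichever pair was left out, with log2 fold changes that stayed between 0.20 and 0.44. Without a block, Ell2 was not called when any single library was omitted, at log2 fold changes of -1.77 to -1.37, and 0 members were called. The same fits called 0 to 1 genes lower and 0 to 1 higher over all genes, against 137 and 2 with all 6 libraries.

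**Figure D2:**
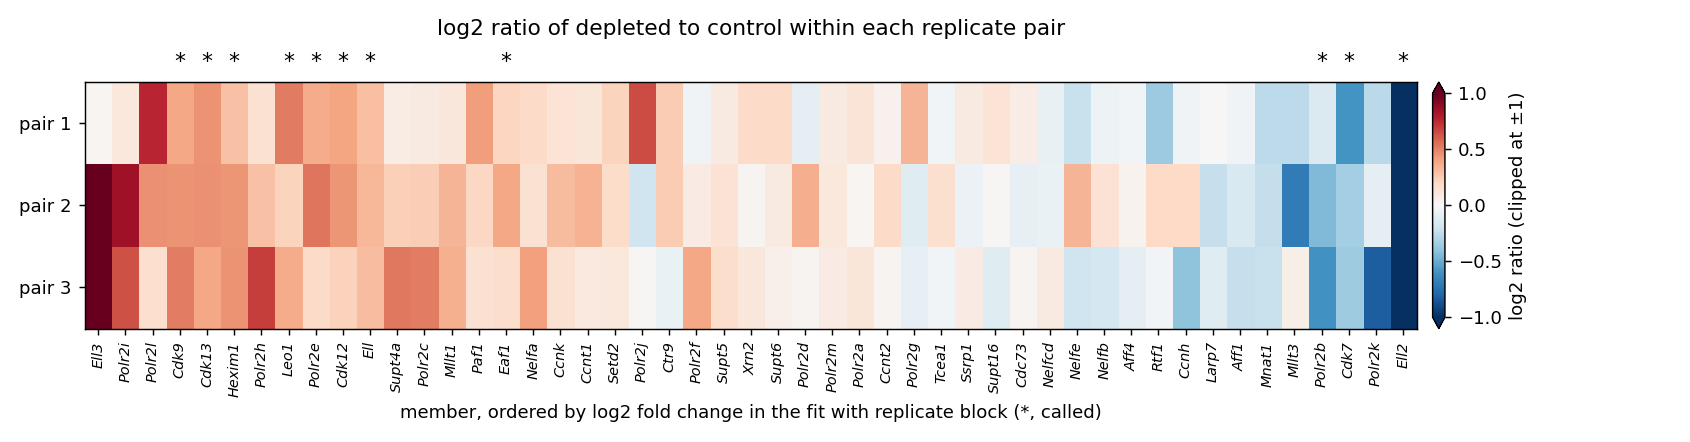
Log2 ratio of the depleted to the control library within each replicate pair (rows) for the 49 members (columns), ordered by the paired fit; red is higher in the depleted library, blue lower, and asterisks mark the 11 called members. Ell2 at the right is lower in all 3 pairs and Cdk9, Cdk13 and Hexim1 near the left are higher in all 3, while Ell3 is near 0 in pair 1 and above 1 in pairs 2 and 3.

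The genes for the 12 core subunits of Pol II had 1 lower and 1 higher call in the paired fit. Across everything tested, that fit called 7.90% lower and 4.96% higher. Without a block, 10 of the 12 subunit genes had a log2 fold change above 0 (median 0.16). The share above 0 among all genes was 52.3% (median 0.02). Polr2a (chromosome 11, 69733997 to 69758633, mm10), which encodes the largest subunit with the CTD, was at 656, 611 and 694 CPM in depleted replicates 1 to 3 and 599, 601 and 637 CPM in controls. The ranges overlapped, and edgeR gave a log2 fold change of 0.09 (SE 0.13, adjusted p = 0.848). Polr2b, which encodes the other large subunit of the catalytic centre (chromosome 5, 77310484 to 77349328, overlapped by Igfbp7), was at 165, 148 and 130 CPM in depleted libraries and 183, 201 and 197 CPM in controls. All 3 depleted libraries lay below all 3 controls. Polr2b fell in the paired fit (log2 fold change -0.40 with SE 0.09, edgeR adjusted p = 0.0146) and was not called without a block (adjusted p = 0.345). It was also not called in the paired fit without pair 2 (adjusted p = 0.0576) or pair 3 (0.135).

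Polr2e, a subunit that Pol II shares with Pol I and Pol III (chromosome 10, 80035953 to 80039659), was at 82.9, 59.0 and 90.2 CPM in depleted libraries and 64.1, 40.6 and 78.9 CPM in controls. The groups overlapped, replicate 2 was lowest in both, and each depleted library was above the control of its number. It rose in the paired fit (log2 fold change 0.37 with SE 0.10, edgeR adjusted p = 0.0309; without a block 0.34, SE 0.26, adjusted p = 0.706). Polr2i, overlapped by Tbcb and Ovol3, has a product that acts in transcript cleavage and fidelity. It was at 11.6, 9.13 and 17.2 CPM in depleted libraries and 10.7, 4.84 and 10.9 CPM in controls. Polr2l, another shared subunit gene, was at 20.44, 10.996 and 15.03 CPM in depleted libraries and 11.87, 7.854 and 13.32 CPM in controls. Without a block their log2 fold changes were 0.51 (SE 0.38) and 0.49 (SE 0.31), and neither was called by edgeR (paired adjusted p = 0.132 and 0.131). With 1 library omitted, Polr2i moved between 0.22 without control replicate 2 and 0.70 without depleted replicate 2, and Polr2l between 0.24 without depleted replicate 1 and 0.69 without depleted replicate 2. Among the other subunits, Polr2c and Polr2j form the assembly heterodimer, Polr2d and Polr2g the stalk, and Polr2f, Polr2h and Polr2k are shared between polymerases. Their log2 fold changes lay between 0.06 for Polr2g and 0.40 for Polr2h, apart from Polr2k at -0.44 (SE 0.39). Polr2k, overlapped by Spag1, had 38 to 105 counts in depleted libraries and 58 to 151 in controls. A copy in the table named Polr2k-ps had 13 to 29 in depleted libraries and 6 to 39 in controls. The counting could divide reads between them, which leaves the value of Polr2k uncertain. Polr2k stood at 3.44 ± 1.11 CPM in depleted libraries and 4.66 ± 1.25 CPM in controls (SD, n = 3). Summed, the 12 subunit genes stood at 1215, 1057 and 1215.5 CPM in depleted libraries and 1126, 1048 and 1153 CPM in controls, higher in the depleted library of each pair with overlapping groups, a difference that was not tested. Polr2m, which encodes the Pol II-bound factor Gdown1, had a log2 fold change of 0.09 (SE 0.15).

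The genes of the pausing factors were not called in either fit. Supt5, the large subunit of DSIF (chromosome 7, 28314891 to 28338804), was at 196, 169 and 206 CPM in depleted libraries and 185, 152 and 182 CPM in controls. Each depleted library was above its paired control, by a paired log2 fold change of 0.14 (SE 0.07; by edgeR, adjusted p = 0.259). Supt4a, the small DSIF subunit, had a paired log2 fold change of 0.29 (SE 0.18). The table also holds Supt4b, a near copy, at 0 to 9 counts in depleted libraries and 2 to 15 in controls, and the counting could divide reads between them. Nelfa, which joins NELF to Pol II (chromosome 5, 33897916 to 33936301, overlapped by Nsd2 and Mir7024), was at 88.2, 89.7 and 96.0 CPM in depleted libraries and 77.0, 80.5 and 72.2 CPM in controls. The groups did not overlap, yet the paired fit did not call it (log2 fold change 0.25 with SE 0.09, edgeR adjusted p = 0.0963). The other NELF subunit genes, Nelfb, Nelfcd and Nelfe, had paired log2 fold changes between -0.03 and -0.02 with SEs of 0.12 to 0.17. Summed, the 4 NELF genes stood at 189 ± 5.47 CPM in depleted libraries and 177 ± 5.16 CPM in controls (SD, n = 3).

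The kinase that releases paused Pol II and its inhibitor were both higher. Cdk9 (chromosome 2, 32705782 to 32712784) was at 175, 138 and 186 CPM in depleted libraries and 133, 101 and 130 CPM in controls. Its groups did not overlap, and the log2 ratio within pairs 1 to 3 was 0.39, 0.45 and 0.51. Cdk9 rose in the paired fit (0.45 on the log2 scale, SE 0.08, edgeR adjusted p = 0.00279; without a block 0.45, SE 0.17, adjusted p = 0.372). Hexim1, the protein that inhibits P-TEFb within 7SK (chromosome 11, 103116325 to 103119725), was at 168, 145 and 169 CPM in depleted libraries and 137, 106 and 124 CPM in controls. All depleted libraries lay above all controls. It rose by a paired log2 fold change of 0.39 (SE 0.08; by edgeR, adjusted p = 0.00719; without a block adjusted p = 0.380), a call that was lost without pair 3 (adjusted p = 0.0617). The cyclin T genes Ccnt1 and Ccnt2 were higher in the depleted library of all 3 pairs but were not called by edgeR, at paired log2 fold changes of 0.19 (SE 0.07) and 0.09 (SE 0.07). Larp7, which binds and stabilises 7SK RNA and whose interval holds the microRNA genes Mir302a to Mir302d and Mir367, had a paired log2 fold change of -0.12 (SE 0.13; by edgeR, adjusted p = 0.610).

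The super elongation complex held the largest change of all 49 members, a fall of Ell2, together with smaller rises of Ell and Eaf1. Ell2 encodes an elongation factor that suppresses transient pausing (chromosome 13, 75707484 to 75772361, overlapped by LOC115488213). It was at 16.43, 9.034 and 14.42 CPM in depleted replicates 1 to 3 and 35.96, 32.67 and 51.08 CPM in controls, from 198 to 368 counts per depleted library and 574 to 945 per control. The groups did not overlap. Ell2 fell without a block (log2 fold change -1.59 with SE 0.28, edgeR adjusted p = 0.0438) and in the paired fit (-1.59, SE 0.17, edgeR adjusted p = 1.36e-04), and the paired value stayed between -1.84 and -1.47 when a pair was left out.

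The paralogs of Ell2 gave other values. Ell (chromosome 8, 70539675 to 70592858) was at 81.0, 61.1 and 79.5 CPM in depleted libraries and 65.6, 48.4 and 64.0 CPM in controls, with log2 ratios within pairs of 0.30, 0.33 and 0.31. The group ranges overlapped, with replicate 2 lowest in both groups, and Ell rose in the paired fit (log2 fold change 0.32 with SE 0.09, edgeR adjusted p = 0.0426; without a block adjusted p = 0.600). Ell3, the form described at enhancers of mouse stem cells (chromosome 2, 121439027 to 121442601), was at 11.7, 5.34 and 14.4 CPM in depleted libraries and 11.5, 2.11 and 4.98 CPM in controls. Its pairs differed widely, at log2 ratios of 0.02, 1.16 and 1.44, and it was not called (paired log2 fold change 0.93 with SE 0.31, edgeR adjusted p = 0.0676). Without a block its value was 1.57 with control replicate 1 left out and 0.34 with control replicate 2 left out. Eaf1, an ELL-associated factor (chromosome 14, 31495079 to 31509858), was at 240, 246 and 221 CPM in depleted libraries and 207, 188 and 195 CPM in controls, without overlap. It rose by a paired log2 fold change of 0.26 (SE 0.08; by edgeR, adjusted p = 0.0410; without a block adjusted p = 0.517). The scaffold genes Aff1 and Aff4 and the acetyl-lysine reader genes Mllt1 and Mllt3 were not called, at paired log2 fold changes of -0.14, -0.03, 0.27 and -0.32. In the paired fit the complex thus held 1 gene lower and 2 higher of 8, where 7.90% of all genes were lower and 4.96% higher. Ell2 and Ell changed in opposite directions in that fit, and the calls of Ell and Eaf1 were lost whichever pair was left out.

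Factors that travel with Pol II through the gene body showed 1 call among 9 genes in the paired fit, a rise. In that fit 4.96% of all genes were higher and 7.90% lower. Leo1, a subunit of the PAF complex (chromosome 9, 75441015 to 75466432, overlapped by LOC115487244), was at 121, 84.8 and 114 CPM in depleted libraries and 84.5, 72.5 and 87.8 CPM in controls. Only depleted replicate 2 reached into the control range. It rose in the paired fit (log2 fold change 0.38 with SE 0.09, edgeR adjusted p = 0.0185; without a block adjusted p = 0.475) and was called without pair 2 but not without pair 1 (0.151) or pair 3 (0.121). Paf1 (chromosome 7, 28392996 to 28399383) was at 82.5, 54.7 and 63.9 CPM in depleted libraries and 61.8, 47.4 and 57.4 CPM in controls, with a paired log2 fold change of 0.26 (SE 0.10; by edgeR, adjusted p = 0.116). Ctr9, the scaffold of the complex, had a paired log2 fold change of 0.15 (SE 0.09), while Cdc73 and Rtf1 were at 0.01 (SE 0.08) and -0.06 (SE 0.11). The genes of FACT, Supt16 and Ssrp1, and of the histone chaperone SPT6, Supt6, had paired log2 fold changes of 0.01, 0.04 and 0.11, each with an SE of 0.07. Tcea1, which encodes TFIIS, the factor that restarts backtracked Pol II, was at 0.04 (SE 0.08), with a copy named Tcea1-ps1 in the table.

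Both kinase genes of CTD phosphorylation during elongation rose. Cdk12 (chromosome 11, 98202433 to 98281101, overlapped by Gm38963 and Mir5119) was at 729, 886 and 720 CPM in depleted libraries and 553, 653 and 614 CPM in controls, without overlap. Its paired log2 fold change was 0.36 (SE 0.07; by edgeR, adjusted p = 0.00560; without a block adjusted p = 0.402). Cdk13 (chromosome 13, 17711676 to 17805212, overlapped by Mir466i) was at 228, 274 and 215 CPM in depleted libraries and 166, 200 and 164 CPM in controls, again without overlap. The log2 ratios within its pairs were close to each other, at 0.45, 0.46 and 0.39, and the paired fit gave 0.43 (SE 0.07, edgeR adjusted p = 0.00232; without a block adjusted p = 0.322). The groups did not overlap for their shared cyclin gene Ccnk either, but it was not called (paired log2 fold change 0.20 with SE 0.09, edgeR adjusted p = 0.186). Setd2, the histone H3 lysine 36 methyltransferase that binds the phosphorylated CTD, was higher in all 3 pairs and not called (0.17, SE 0.07, adjusted p = 0.120). DESeq2 with the block called Setd2 and Ccnt1 in addition to the 11 members above (7.97% of all genes lower and 6.47% higher).

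The CAK was the role in which all members had a log2 fold change below 0. Cdk7, its kinase (chromosome 13, 100697024 to 100730942, overlapped by Ccdc125), was at 63.7, 77.3 and 71.3 CPM in depleted libraries and 96.6, 97.9 and 91.2 CPM in controls. The groups did not overlap. Cdk7 fell in the paired fit (log2 fold change -0.43 with SE 0.09, edgeR adjusted p = 0.0104; without a block adjusted p = 0.287), a call that was lost without pair 1 (adjusted p = 0.0958). Mnat1, the assembly factor of the complex, was lower in all 3 pairs and not called (paired log2 fold change -0.25 with SE 0.13, edgeR adjusted p = 0.256), and 5 other annotated genes lie within or across its interval. Ccnh, the cyclin of CDK7, had a paired log2 fold change of -0.08 (SE 0.14). Summed, the 3 CAK genes were at 122, 160 and 124 CPM in depleted libraries and 160, 180 and 157 CPM in controls. At the other end of the gene, Xrn2, the exonuclease that degrades the RNA left on Pol II after cleavage, had a paired log2 fold change of 0.11 (SE 0.08; by edgeR, adjusted p = 0.402).

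**Figure D3:**
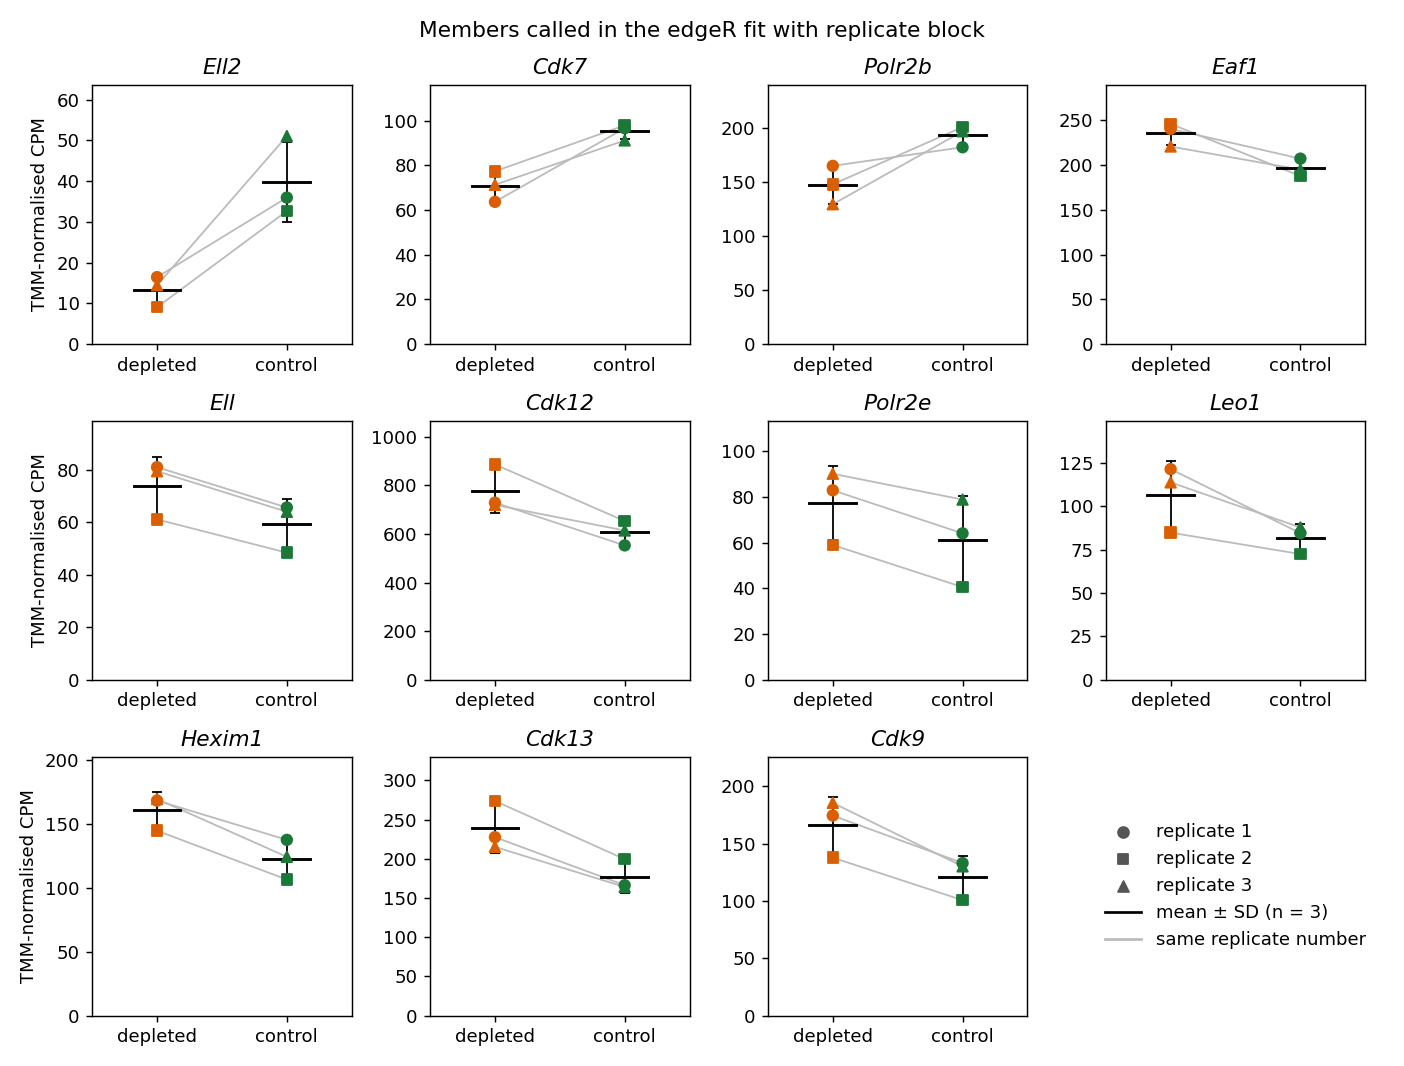
TMM-normalised CPM (y axis, from 0) of the 11 members called in the paired fit, depleted libraries left and controls right; marker shapes give the replicate number, grey lines join equal numbers, and black bars are mean ± SD (n = 3). Ell2, Cdk7 and Polr2b are lower in every depleted library than in every control, and the 8 other genes are higher in the depleted library of each pair.

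The members called in the paired fit were spread over genomic lengths. RefSeq gave a genomic length for all 49 members and for 87.4% of the genes tested. Of the 17 members under 10 kb, 3 rose and 0 fell, where 5.89% of the 5063 tested genes of that length rose and 2.41% fell in the same fit. Their median log2 fold change without a block was 0.28, against 0.14 for those genes. The 12 members of 10 to 30 kb had 2 that rose and 0 that fell, where 7.30% of all genes of that length rose and 9.27% fell, and a median of 0.13, against 0.04. In the class of 30 to 100 kb, 3 of 17 members fell and 3 rose, where 13.9% of all genes fell and 4.48% rose in the same fit. The median of these members was 0.10, against -0.07 for all genes of that class. Cdk12, at 78.7 kb, and Cdk13, at 93.5 kb, are longer than Ell2, at 64.9 kb, Polr2b, at 38.8 kb, and Cdk7, at 33.9 kb. The 3 members over 100 kb, Aff1, Mllt3 and Mnat1, had log2 fold changes of -0.15, -0.34 and -0.24 and no call, where 12.6% of all genes of that length fell and 1.32% rose. With any 1 library omitted, the members' median lay between 0.13 and 0.45 under 10 kb, 0.07 and 0.15 at 10 to 30 kb, -0.03 and 0.16 at 30 to 100 kb, and -0.38 and -0.13 over 100 kb. It was below 0 at 30 to 100 kb without depleted replicate 2. Log2 fold change and length of the 49 members had a Spearman's rho of -0.391, a description over genes that share their libraries.

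**Figure D4:**
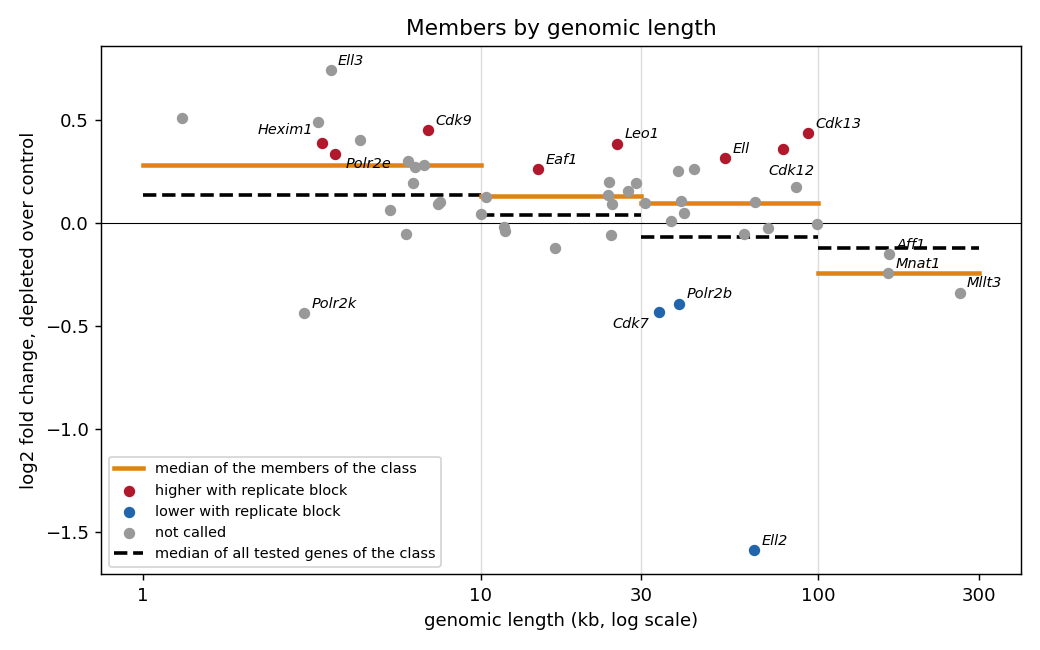
Log2 fold change without a block (y axis) against genomic length (x axis, kb, log scale) of the 49 members, coloured by the call of the paired fit; orange lines are members' medians in 4 length classes and dashed lines those of all tested genes. Members' medians lie above those of all genes in the 3 classes under 100 kb and below in the class over 100 kb, which holds 3 members.

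Length also went with how the libraries of one group differed from each other. In replicate 2 of both groups, 19 members had their lowest level, and 13 had their highest. The same count was not made over all genes tested, so the pattern cannot be called particular to the members. The 19 low members had a median length of 6.8 kb and included 6 small or shared Pol II subunit genes, Polr2c, Polr2e, Polr2g, Polr2h, Polr2i and Polr2l, besides Cdk9, Hexim1, Ell, Ell2 and Leo1. The 13 high members had a median length of 65.2 kb and included Ccnt1, Ccnt2, Aff4, Cdc73, Setd2, Cdk12, Cdk13 and Cdk7. For members under 10 kb, replicate 2 lay at a median log2 ratio of -0.48 to the mean of the other depleted libraries and -0.47 to that of the other controls. For members of 30 to 100 kb the same medians were 0.24 and 0.13. For the 11 called members the SE without a block was 1.52 to 2.57 times that of the paired fit. For Cdk9 the SE was 0.17 without a block and 0.08 in the paired fit, both on the log2 scale. Its SD between libraries was 25.01 CPM in the depleted group and 17.9 CPM in controls.

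**Figure D5:**
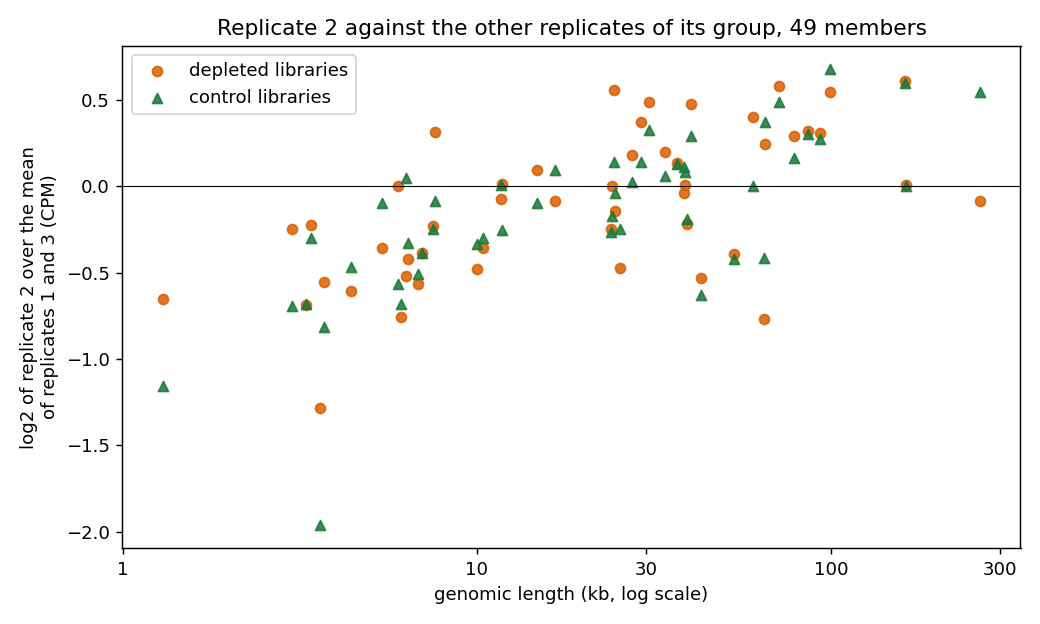
Log2 ratio of replicate 2 to the mean of replicates 1 and 3 of its group (y axis) against genomic length (x axis, kb, log scale) for the 49 members, in depleted libraries (circles) and controls (triangles). In both groups 16 of the 17 members under 10 kb lie below 0 and most members of 30 to 100 kb above it.

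The start sites of the called members were read to show what their promoters hold. RefSeq windows of 300 bases of GRCm38.p6, from 250 bases before to 50 after a start site, were found for 41 members, among them all 11 that were called. Shown are the 3 members that fell and, of those that rose, Cdk9 and Cdk13, which had the largest rises. Capitals mark the GC box GGGCGG, the CCAAT box, the ETS-type CCGGAAG, the cyclic AMP response element TGACGTCA, TATAAA and GTAAGT, the letters of a 5' splice site, each searched on both strands.
Ell2 (chr13:75707234-75707533, + strand): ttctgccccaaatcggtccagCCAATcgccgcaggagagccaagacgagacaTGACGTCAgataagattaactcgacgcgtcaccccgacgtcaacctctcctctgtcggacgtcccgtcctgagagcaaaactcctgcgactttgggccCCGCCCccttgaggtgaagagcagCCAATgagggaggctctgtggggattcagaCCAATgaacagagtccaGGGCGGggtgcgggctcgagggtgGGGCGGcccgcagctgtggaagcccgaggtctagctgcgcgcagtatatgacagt
Cdk7 (chr13:100730893-100731192, - strand): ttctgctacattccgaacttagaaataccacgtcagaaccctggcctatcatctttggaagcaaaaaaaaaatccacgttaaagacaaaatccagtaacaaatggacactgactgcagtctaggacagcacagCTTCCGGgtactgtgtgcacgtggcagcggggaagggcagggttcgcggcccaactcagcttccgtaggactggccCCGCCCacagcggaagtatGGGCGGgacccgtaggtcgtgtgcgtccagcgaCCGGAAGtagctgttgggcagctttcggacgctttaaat
Polr2b (chr5:77310234-77310533, + strand): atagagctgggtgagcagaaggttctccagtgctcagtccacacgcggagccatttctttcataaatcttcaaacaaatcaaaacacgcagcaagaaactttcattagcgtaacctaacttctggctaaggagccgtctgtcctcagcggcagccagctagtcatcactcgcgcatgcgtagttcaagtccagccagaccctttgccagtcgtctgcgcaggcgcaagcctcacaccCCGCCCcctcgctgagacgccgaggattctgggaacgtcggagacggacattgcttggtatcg
Cdk9 (chr2:32712735-32713034, - strand): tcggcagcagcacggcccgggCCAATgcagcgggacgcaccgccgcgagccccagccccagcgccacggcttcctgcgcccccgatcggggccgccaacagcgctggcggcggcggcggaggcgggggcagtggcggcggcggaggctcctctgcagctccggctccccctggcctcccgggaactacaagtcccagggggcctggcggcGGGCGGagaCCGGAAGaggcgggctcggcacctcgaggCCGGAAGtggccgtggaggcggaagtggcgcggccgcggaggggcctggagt
Cdk13 (chr13:17805048-17805347, - strand): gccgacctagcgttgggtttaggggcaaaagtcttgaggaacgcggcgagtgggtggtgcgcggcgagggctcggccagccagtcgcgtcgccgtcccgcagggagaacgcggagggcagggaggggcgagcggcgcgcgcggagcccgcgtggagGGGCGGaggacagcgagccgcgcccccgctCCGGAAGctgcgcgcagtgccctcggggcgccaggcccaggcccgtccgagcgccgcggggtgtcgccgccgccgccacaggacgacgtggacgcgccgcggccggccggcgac

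GGGCGG was in the windows of 34 of the 41 members and of 10 of the 11 called ones, Eaf1 being the exception, against 35.7% of all 32851 windows. CCGGAAG was in 13 of 41, among them Cdk9, Cdk13, Cdk7 and Eaf1, against 8.86% of all windows. CCAAT was in 15 of 41 and in 37.4% of all windows, and Ell2 carried it 3 times. The Ell2 window also held TGACGTCA, which was in 2 of 41 members, the other being Larp7, and in 1.79% of all windows. TATAAA was in the windows of 3 members, in none of the called ones, and in 13.6% of all windows. GTAAGT was in those of 5 members, with Ell the called member among them, and in 7.65% of all windows. The median GC content was 62.0% over the members, whose windows were averaged where a gene had several, and 52.7% over all windows, with 54.0% for Cdk7, 54.7% for Polr2b and 61.3% for Ell2 against 78.3% for both Cdk9 and Cdk13. Of 14 motifs searched, 8 others were the E-box CACGTG, the splice site letters GGTAAG, the shorter response element TGACGT, the string GAAAGGAGA and the motifs of ZNF143, NRF1, Kaiso and YY1, each in at most 7 of the 41. The share of all windows that held them was at most 9.67%, for GGTAAG, and 7.51% for TGACGT, which was in 7 members. A match is a stretch of letters and not a measured site.

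Other genes of Pol II transcription were taken from a second list, of which 85 of 87 in the table were tested. The paired fit called 8 lower and 7 higher, where 7.90% of all genes were lower and 4.96% higher (10.5 and 8.71% among genes of at least 10 CPM). The fit without a block called 1 lower, Taf12, and 0 higher. Of 28 initiation factor genes, 4 fell and 1, Gtf2f1, rose, and of 7 genes for Pol II assembly 0 were called. Taf12, a histone-fold subunit of TFIID, stood at 8.66 ± 1.66 CPM in depleted libraries and 22.3 ± 2.89 CPM in controls (SD, n = 3), a paired log2 fold change of -1.36 (edgeR adjusted p = 0.00124; without a block adjusted p = 0.0438). Taf6, another histone-fold subunit of TFIID, fell 1.61-fold and Gtf2a1, which encodes the large TFIIA precursor, fell by 0.59 on the log2 scale in the paired fit. None of the TFIIH core genes Gtf2h1 to Gtf2h5, Ercc2 and Ercc3, whose products work with the CAK, was called in either fit. Of 13 genes for CTD phosphatases and CTD-binding proteins, Ctdp1, Scaf1 and Scaf4 rose and Rpap2, a CTD phosphatase that also brings Pol II into the nucleus, fell 1.97-fold, to 23.3 ± 4.46 CPM in depleted libraries against 45.3 ± 5.32 CPM in controls. Of 18 other elongation genes, Dot1l and Setd1a rose and Iws1, a partner of SPT6, fell. Of 19 genes for subunits of Pol I and Pol III, Polr3c fell 1.83-fold and Polr3g, the stem cell form of a Pol III subunit, 1.56-fold, and Polr3d rose.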

How the data were processed

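Captured 4sU-labelled RNA was measured in 6 libraries. The submitters' processing notes list mm10, StringTie 2.2.1, HISAT2 2.2.1 and DESeq2 1.42.0, without their roles. The deposited values are estimated counts per gene, already whole (expected counts). Sources used here state neither the strand setting nor the 4sU pulse, so overlapping genes cannot be told apart. Depth, given in the report, sets the precision of low members such as Polr2k.

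In R 4.3.3, edgeR 4.0.16 compared depleted with control: filterByExpr, TMM scaling, quasi-likelihood test, Benjamini-Hochberg over all 17573 genes. Each SE was derived from log2 fold change and F. Deviations from group means correlated at 0.268, 0.387 and 0.321 for equal replicate numbers and at -0.265 to -0.025 for unequal ones, so equal numbers were treated as pairs. Because each group was centred on its mean, positive values for equal numbers force negative ones among the unequal, which are no separate support. No label says that replicates were separate cultures, and the spread behind each p-value may be technical. Within-pair log2 ratios added 0.5 CPM.

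The members and lists were chosen with earlier results of these data known. Values per library are given for members called in either fit, the 5 largest absolute log2 fold changes without a block, and Polr2a, Supt5, Cdk9, Nelfa and Paf1. Other pathway genes are named where the paired fit called them at 1.5-fold or more, and others were added after their values were seen. Alternatives were the block, DESeq2 1.42.0, limma 3.58.1 voom, other scalings and filters, and omitted libraries. Fits were tested on simulated data. Places, lengths and promoter sequences are from RefSeq, GRCm38.p6, the assembly that mm10 names.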

Additional observations from a re-analysis of the deposited data

How the results depend on the processing

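The 18 members with values per library kept their direction under every alternative run. Without a block, Ell2 was called and no other member under RLE or upper-quartile scaling, no filter, at least 10 counts in all 6 libraries, limma voom and DESeq2. Omitting 1 library gave 0 members called, medians of 0.095 to 0.166 over the members, 0 to 1 genes lower and 0 to 1 higher over all genes, and 0 of the other pathway genes. With the replicate block, 3 members were lower and 8 higher, under RLE and upper-quartile scaling and voom too. With DESeq2 or the stricter filter 3 were lower and 10 higher, but the genes added to the 8 differed. DESeq2 added Ccnt1 and Setd2, and the stricter filter added Ell3 and Polr2c. Leaving out a pair from the block gave 2 members lower in each case and 3 to 5 higher, 699 to 1016 lower (927 without pair 1) and 250 to 491 higher (412 without pair 2) over all genes, and 7 to 9 and 1 to 4 of the other pathway genes. Over all genes, the calls were 137 lower and 2 higher without a block and 579 and 62 with DESeq2, while voom called 1 higher. With the block they were 1388 and 871, with RLE scaling 1358 and 1080, and with DESeq2 1401 and 1137. The block with upper-quartile scaling gave 1492 and 983, with the stricter filter 1731 and 1267 and with voom 1696 and 1312, these 3 being added after the data were seen. Other pathway genes lower and higher were 8 and 7 with the block, 8 and 9 with RLE scaling, 9 and 8 with DESeq2, 11 and 8 with upper-quartile scaling, 14 and 10 with the stricter filter and 11 and 9 with voom, against 1 and 0 without it and 4 lower with DESeq2 alone. The cause of these differences was not tested.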
